A study of Homo sapiens with 2 samples.

Results

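A total of 127 guides of the GeCKO v2.0 knockout pool had no read in unsorted SK-OV-3 reporter cells and at least 300 reads in the TRT-negative cells sorted from them. These guides were selected on exactly those raw read counts, among rows that are neither non-targeting nor aimed at a microRNA, so their reads are a description and were not tested. They made up 0.111% of these 114123 rows, called protein-coding guides here, and each hit a different gene, so 127 of 19051 genes (0.667%) held such a guide. In GENCODE 44, 122 of the targets are protein-coding, LOC100130370 is a long non-coding RNA and C19orf48 a transcribed pseudogene, and 3 were not matched to an entry. The 3 were C8orf31 (now LY6S-AS1), MARS and LOC100289561, and their gene type was not assigned. SK-OV-3 is an established human ovarian cancer cell line. The cells carried a reporter of transcriptional readthrough (TRT) built on the stretch from COMMD3 to BMI1, in a lentiviral vector with the EF1a promoter, with mCherry upstream and EGFP downstream. TRT-negative cells were sorted as mCherry-positive and EGFP-negative, after the pool had been delivered at a multiplicity of infection near 0.3 and cells had been selected with 2 µg/mL puromycin. The unsorted cells shared the line, the reporter, the pool and the selection, and are called unsorted from the study's design, although the title of that sample names both fluorescent proteins. Each condition was 1 library, with 12882989 unsorted and 12444427 TRT-negative reads, so no difference between conditions could be tested.

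In a pooled knockout screen each cell carries a guide that directs Cas9 to cut 1 gene, and the guide cassette in genomic DNA serves as a barcode of that cell and its progeny. A guide whose knockout moves cells into the gate should gain reads there, and the usual sign of such a gene is that several guides of independent sequence gain together. A guide can also be abundant because a few cells that carried it grew into large clones. For these reasons the account below sets each abundant guide beside the other guides against the same gene.

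The 127 guides had between 301 and 2349 TRT-negative reads, with a median of 414 and quartiles of 335.5 and 594. The counts were spread unevenly: 60 guides lay under 400 reads, 35 from 400 to under 600, 20 from 600 to under 1000 and 12 at 1000 or more. Together they held 70375 reads, or 0.566% of the TRT-negative library. Against a floor of 3 unsorted reads, which is what a count of 0 allows, the normalized reads were at least 104-fold higher for the lowest guide and at least 813-fold higher for the highest. The floor and all intervals given here (exact Clopper-Pearson for shares, 95%) cover counting error only, since PCR reads are not independent molecules and guides can also be missed when cells or DNA are sampled.

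The guides stood at the far end of a broad class. Of 14434 protein-coding guides read only in the TRT-negative library, the 127 were 0.880% (interval 0.734% to 1.05%), while 50.8% had 30 to under 100 reads and 7.85% had 100 to under 300. Seen from the other side, 7781 protein-coding guides had at least 300 TRT-negative reads, and 1.63% of them had no unsorted read (interval 1.36% to 1.94%). Only 8 had 1 to 3 unsorted reads and 3 had 4 to 29, whereas 232 had 30 to under 300 and 7411 had 300 or more. The unsorted counts of well-read guides thus lay either at 0 or mostly well above it, with few in between. The share without an unsorted read was 4.84% among guides with 300 to under 400 TRT-negative reads (interval 3.71% to 6.18%), 1.89% from 400 to under 600, 1.17% from 600 to under 1000 and 0.403% at 1000 or more (interval 0.208% to 0.703%).

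At the limit of 300 reads the values ran on without a break. Just above 300 reads stood TPI1 with 301, BLNK with 302, PPT2 and KPNA7 with 303 each, and FAS with 304. Just below stood PITPNB with 299, OR7C2 and STK32C with 298 each, and FITM2 and PRNP with 296 each, all from 0 unsorted reads. On the unsorted side, where few well-read guides lay just above 0, an OR1E1 guide had 2 unsorted and 1874 TRT-negative reads, and guides of OTUD5, RPL37A, POPDC2 and ACSL6 had 1 unsorted read and 1084, 675, 612 and 420 TRT-negative reads.

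Control guides without a human target and guides against microRNAs also passed the same rule. Of 1000 non-targeting guides, each counted once, 1 had 0 unsorted and 375 TRT-negative reads, a share of 0.10% (interval 0.00253% to 0.556%) beside 0.111% (interval 0.0928% to 0.132%) of protein-coding guides. These shares are not like for like, because non-targeting guides are listed in repeated rows and were better read. At least 300 TRT-negative reads were found for 117 of the 1000, against a smaller share of protein-coding guides, 7781 of 114123. Of 7288 microRNA guides 9 passed, or 0.123% (interval 0.0565% to 0.234%). Among guides with at least 300 TRT-negative reads, those without an unsorted read were 0.855% of 117 non-targeting guides (interval 0.0216% to 4.67%), 2.27% of 397 microRNA guides (interval 1.04% to 4.26%) and the 1.63% of protein-coding guides given above. All these intervals overlap. By sublibrary, 54 of 57095 protein-coding guides of GeCKO A passed (0.0946%, interval 0.0711% to 0.123%) and 73 of 57028 of GeCKO B (0.128%, interval 0.100% to 0.161%).

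The other guides of the 127 genes were not used by the rule and formed the main comparison. There were 634 of them, since 126 genes had 6 guides and 1 had 5. In the TRT-negative library 142 of the 634 had a read (22.4%, interval 19.2% to 25.8%), against 22.5% of all protein-coding guides other than the 127. In the unsorted library 64 had a read (10.1%, interval 7.86% to 12.7%), against 10.5%. Read only in the TRT-negative library were 82 (12.9%, interval 10.4% to 15.8%), against 12.6%, and these had a median of 30 reads against 35. Both shares lay close to those of the whole pool.

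A further measure was the log2 ratio of normalized counts after over before sorting, with 1 added to each. The threshold on it was 5.93, below which 95% of non-targeting guides lay, and a guide at 0 unsorted reads passed it with 60 TRT-negative reads. Since non-targeting guides were better read than protein-coding guides, it serves as a common cut-off and gives no error rate for gene guides. Of the 634 other guides 12 were past it (1.89%, interval 0.982% to 3.28%), beside 2.76% of all other protein-coding guides. No other guide of a target gene reached 300 reads from 0. The highest was a KAT5 guide with 250.

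Of the 127 genes, 41 had no read on any other guide in either library, and 43 had none on another guide after sorting. An unread guide was common in this pool. No read in either library was found for 77.0% of the 634 other guides, and for 77.0% of all protein-coding guides other than the 127. After sorting 46 genes had 1 other guide with reads, 21 had 2, 14 had 3, and FBXW2, MPC1L and PHTF2 had 4. Before sorting 82 genes had no read on another guide, which is 64.6% (interval 55.6% to 72.8%), against 57.5% for protein-coding guides read only after sorting with under 300 reads. No other guide of the gene was read after sorting for 33.9% of the 127 (interval 25.7% to 42.8%), against 28.3% for protein-coding guides read only after sorting with under 300 reads. Another guide past the threshold was present for 8.66% of the 127 (interval 4.40% to 15.0%), against 14.1% (interval 13.6% to 14.7%) for those less abundant guides. Each of these 3 intervals for the 127 genes includes the share of the less abundant guides.

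The 11 genes with a second or further guide past the threshold were of mixed function. KAT5, the acetyltransferase of the TIP60 complex, had its abundant guide at 312 reads, another at 250, and further guides at 50 and 11, all from 0 unsorted reads. CHERP, an RNA-processing protein that associates with the U2 spliceosome, had 620 and, on other guides, 90 and 97. TAX1BP3, a small PDZ-domain protein, had 356 and 163. C19orf48, now named C19orf48P, had 432 and 150, and LMAN1, a cargo receptor between the endoplasmic reticulum and the Golgi, had 445, 118 and 1. SULT1A4, a sulfotransferase with a near-identical copy, had 314 and 102, and the latter had a neighbouring row of equal counts, so its reads cannot be assigned to 1 gene. HSD17B2, a steroid dehydrogenase, had 600 and 89, with a further guide that had 797 unsorted and 764 TRT-negative reads. FAM134C (RETREG3), a receptor for autophagy of the endoplasmic reticulum, had 951, 87 and 35 reads from 0, and another guide at 884 unsorted and 525 TRT-negative reads. Its guide with 87 reads also had a neighbour of equal counts. CABYR, a calcium-binding sperm protein, had 425 and 76 from 0, and 156 against 47 on another guide. NCMAP, a myelin-associated protein, had 549, 76 and 30. ACTN4, an actin cross-linker, had 388, 63 and 41.

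Where another guide of the gene was already present before sorting, the change on sorting could be followed. Of the 634 other guides 53, in 38 genes, had at least 30 unsorted reads. Their log2 ratio had a median of -0.53 and quartiles of -1.41 and 0.32, against a median of -0.64 and quartiles of -1.39 and 0.41 for all 10616 such protein-coding guides. It was above 0 for 18 of the 53 (34.0%, interval 21.5% to 48.3%), against 34.2% of all such guides. None of the 53 was past the threshold, but neither was any of the 10616, whose highest ratio was 3.76. Among the 53 it ranged from -4.97, for a KIF23 guide with 31 unsorted and 0 TRT-negative reads, to 1.83, for an FBXW2 guide with 30 and 105. At least 1 such guide had a ratio above 0 in 16 genes, and all such guides were at or below 0 in 22.

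The best-read of these guides are described with the gene they share. HDAC6, a cytoplasmic deacetylase of tubulin and chromosome X gene (hg38 chrX:48801377-48824982, plus strand), had the most abundant guide of all at 2349 reads from 0. Of its other guides, 3 were read in both libraries. They went from 979 to 613, 1710 to 1215 and 2619 to 3194, on both sides of equality. SLC18A3, which loads acetylcholine into synaptic vesicles, had 2152 reads from 0 on its abundant guide and went from 2334 to 821 on another. PHTF2 had 735 from 0, and other guides from 5822 to 6327 and from 2121 to 1155. KPNA7, an importin alpha of the early embryo, had 303 from 0 and went from 3056 to 1180 on another guide. NUDT8, a Nudix hydrolase, had 438 from 0 and went from 2544 to 1398. IDS, the lysosomal iduronate sulfatase, had 409 from 0 and went from 1976 to 1436. TPI1, the triose phosphate isomerase of glycolysis, had 301 from 0 and guides that went from 1362 to 1414 and from 172 to 56. CEP112, a centrosomal protein, had 482 from 0 and went from 1152 to 1470. SLC25A5, an ADP/ATP carrier of mitochondria, had 469 from 0 and went from 1822 to 660. MOSPD1 had 356 from 0, with other guides at 972 before and 1550 after sorting, 371 and 595, and 895 and 50, so guides against the same gene were found on opposite sides.

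The 127 targets were next read by function. Roles were assigned by hand after the guides were known and carry no test. The other genes of the pool were given no role, so the number of guides per role has no background share and shows no concentration. Lists of genes chosen with earlier results of these data in view were set against the 0.667% of all genes that hold an abundant guide. The lists are partial, so a count covers the genes listed and not every gene of that function. The 13 genes singled out by the study from this screen held 7 (RRN3, RBBP4, PSMD10, UBE2D2, CHERP, POLR2F and KAT5), but they were taken from these libraries, so this is not independent evidence. The RNA polymerase list held 2 of 55 genes (3.64%, RRN3 and POLR2F) and the TIP60 and NuRD list 2 of 30 (6.67%, RBBP4 and KAT5). The lists for the spliceosome (55 genes), proteasome (33), histone deacetylases and sirtuins (18) and autophagy with mTORC1 and AMPK (62) held 1 each. RRN3, POLR2F, RBBP4, KAT5, CHERP and PSMD10 are among the 7 genes above. The lists were chosen with results in view, so these counts are not independent evidence either. The spliceosome list, which held CHERP, did not include the targets RBM22 and WBP4. None was found among 30 genes of cleavage, polyadenylation and termination, 36 of elongation and Integrator, 30 of Mediator, 40 of replication and mitosis, 35 of receptor kinase, RAS and PI3K signalling, 28 tumour suppressors and p53 pathway genes, 87 ribosomal proteins, 76 mitochondrial ribosomal proteins or 104 GPR receptors. At the background share each of these lists would hold fewer than 1 such gene, so a count of 0 sets none of them apart. The replication and mitosis list did not include the targets POLD3, SPC25 and KIF23, described below by role.

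Transcription and chromatin genes took 9 of the 127 guides, with 312 to 1580 reads and a median of 512. RRN3, an initiation factor of RNA polymerase I (hg38 chr16:15060033-15094311, minus strand), had 1580 reads on its abundant guide, and its other 5 guides had no read in either library. ZNF627, a zinc finger gene, had 1316, with another guide at 24 unsorted and 6 TRT-negative reads. RBBP4, a histone-binding subunit of NuRD and other complexes (hg38 chr1:32651142-32686211, plus strand), had 820 and no read on any other guide. PHF15 (JADE2), a scaffold of a histone acetyltransferase complex, had 558 and 59, and BACH2, a repressor best known in lymphocytes, had 512 beside guides that went from 879 to 344 and from 604 to 756. POLR2F, a subunit common to the nuclear RNA polymerases, had 412 and 32. KAT2A, the acetyltransferase GCN5, had 332, 30 and 1, and SP140, a chromatin reader of immune cells, had 318 alone. In this group KAT5 was the gene with another guide past the threshold.

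RNA-processing genes took 7 guides, with 320 to 620 reads and a median of 337. CHERP was the highest. WBP4, a spliceosomal WW-domain protein, had 588 and 4, SFSWAP, a splicing regulator, had 512 and 1, and HNRNPH2, an hnRNP, had 336 and 2, with the 2 reads equal to those of a neighbouring row. FTO, an RNA demethylase, had 337, with other guides at 40 and 47 from 0 and another from 1298 to 295. PAPD4 (TENT2), a cytoplasmic poly(A) polymerase, had 321 and 33 from 0 and a guide from 658 to 238. RBM22, a core spliceosome component, had 320 alone. Outside CHERP, the other guides of these genes that were read only after sorting had 47 reads or fewer.

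Genes of DNA replication, repair and cell division took 7 guides, with 312 to 1568 reads. C4orf21 (ZGRF1), a DNA helicase, had 1568 and 33, POLD3, a subunit of DNA polymerase delta, had 1006 and 30, and ZRANB3, an annealing helicase at stalled forks, had 560 alone. SPC25, part of the NDC80 kinetochore complex, had 504 and 3, the cytidine deaminase APOBEC3B had 383 alone, and KIF23, a motor of cytokinesis, had 312. CEP112 is given above. Of the 35 other guides of these genes 4 were read in the TRT-negative library and 0 were past the threshold.

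Ubiquitin and protein turnover took 5 guides, with 377 to 665 reads. PSMD10, an assembly chaperone of the proteasome, had 665 and UBE2D2, a ubiquitin-conjugating enzyme, had 622, both with no read on another guide. FBXW2, an F-box protein, had 487, with 51 and 39 on others from 0 and a guide from 1883 to 514. Its guide with 51 reads had a neighbouring row of equal counts. ZFAND1 had 388 alone, and DTX3, a ubiquitin ligase, had 377, another at 29 from 0, and guides from 3 to 1 and from 8 to 6. The group on autophagy, membrane traffic and nuclear transport took 15, with 303 to 951 reads. PIK3C3, the lipid kinase of autophagosome formation, had 355 from 0 and went from 166 to 216 on another guide. FAM134C led the group, and KIAA1468 (RELCH) had 644, ARFGAP3 476 and TTC7A, a scaffold of the phosphatidylinositol 4-kinase complex, 460 and 28. NUP93, a structural nucleoporin, had 305 and 30.

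Metabolic and mitochondrial genes took 20 guides, with 301 to 1088 reads. ACAT1, a mitochondrial thiolase, had 1088 and 15, THEM4, a thioesterase, had 892 alone, and FADS3, of the fatty acid desaturase family, had 742 and 29 beside a guide from 979 to 727. OGDH, of the 2-oxoglutarate dehydrogenase complex, had 490 and 43, and SCD, the stearoyl-CoA desaturase, had 377 and 46. Of their 100 other guides 25 were read after sorting and 2 were past the threshold. Transporters and channels took 8, with 342 to 2152 reads. SLC4A4, a sodium bicarbonate cotransporter, had 1230 alone, SLC31A2, related to copper transporters, had 1111 and 49, the latter beside a row of equal counts, and the phosphate transporter SLC34A2 had 513 alone. By symbol, 6 of 384 solute carriers (1.56%) held an abundant guide, beside 0.667% of all genes, and no test was made.

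The other roles were more varied. Genes of cilia and sperm took 5 guides, led by DNAI2, an axonemal dynein chain, with 1437 reads and other guides at 7 from 0 and from 23 to 13. Immune cell genes took 6, led by SCIMP, an adaptor of antigen-presenting cells, with 971 and 26. Signalling and receptor genes took 13, led by the galanin receptor GALR2 with 855, which had another guide from 19 to 24, and IPCEF1 with 832. The olfactory receptor OR6P1 had 347 alone, as 1 of 376 olfactory receptors (0.266%), while ZNF627 was 1 of 498 genes with a ZNF symbol (0.201%). Both shares stand beside 0.667% of all genes and were not tested. Genes of the cytoskeleton, adhesion and matrix took 12, with HDAC6 first, FCGBP, a mucin-like secreted protein, at 863 beside a guide from 449 to 540, the collagenase MMP13 at 747 alone, and the keratin KRT39 at 329 and 50. The remaining 20 were secreted, miscellaneous or little-described genes, led by SAMD3 with 1873, which also had 35 from 0 and a guide from 1358 to 313. Among them C8orf31 (LY6S-AS1) had 1080 and C9orf3 (AOPEP) 883, both alone. C3orf43 (SMCO1) had 819 beside guides from 547 to 742, 680 to 551 and 449 to 717. Of 560 targets with an open reading frame symbol 7 held an abundant guide (1.25%), beside 0.667% of all genes, again without a test.

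Further targets of several groups are given with the reads of their other guides. In membrane traffic, SYT3, a synaptotagmin, had 429 reads from 0, while its other guides stood at 542 before and 1023 after sorting and at 1112 and 183. TVP23A had 386 and 49 from 0, with other guides from 1607 to 377 and from 1530 to 558. The lysosome-positioning protein KXD1 had 364 and the sorting nexin SNX19 had 323, both alone. In metabolism, MPC1L, a relative of the mitochondrial pyruvate carrier, had 665, then 32, 15 and 13 from 0, and a guide from 603 to 1107. Butyrylcholinesterase (BCHE) had 623, the calcium uniporter regulator MCUR1 338 and leukotriene A4 hydrolase (LTA4H) 333, all alone. The sialidase NEU3 had 312, 44 and 36.

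Among signalling genes, AKAP10, which anchors protein kinase A, had 456 and 26 from 0, with guides from 545 to 264 and from 594 to 474. RTP4 had 335 and 3 beside guides from 345 to 633 and from 825 to 751. GFRAL, the receptor of GDF15, had 499, the phosphatase DUSP8 428 and the ligand WNT3 315, all alone. Of the guides read in both libraries, those of AKAP10 thus lay below equality and those of RTP4 on either side of it. GFRAL, DUSP8 and WNT3 had no other guide read. Among matrix and adhesion genes, SH3PXD2B, a scaffold of invadopodia, had 414, the tight junction protein CLDN12 385, COL27A1 327 and the metalloproteinase inhibitor TIMP1 322, all alone, while NTM, a neural adhesion molecule, had 482 beside a guide from 1664 to 565. In the immune group FAS, the death receptor, had 304 and 49 from 0, and 1 unsorted and 84 TRT-negative reads on another guide, which did not pass the threshold. BLNK, the B-cell linker, had 302 and 1 from 0 and a guide from 433 to 508. CEACAM8 had 356 beside a guide from 553 to 408. The potassium channel KCNJ16 had 540 and 16 from 0 and a guide from 1085 to 723. Sex hormone-binding globulin (SHBG) had 319 beside a guide from 2061 to 418, secretogranin SCG2 had 646 beside 737 to 377, and CDC20B had 337 beside 1218 to 607.

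Positions from GENCODE 44 on hg38, the build named in the submitters' notes, were found for 124 of the 127 targets. Chromosome 17 held 16 of them (12.9%, interval 7.56% to 20.1%), while 5.90% of all protein-coding guide rows with a position were aimed there. It was picked after the shares on 24 chromosomes had been seen, and no test was made. Guides read only in the TRT-negative library with under 300 reads were on chromosome 17 in 6.06% of cases (interval 5.67% to 6.47%), and guides with at least 300 reads in both libraries in 5.42% (interval 4.91% to 5.97%). The 16 targets lay along most of the chromosome, from TAX1BP3 (hg38 chr17:3662895-3668679, minus strand) to LOC100130370 (LINC03048, chr17:81375144-81385464, minus strand), with DNAI2, SCIMP, FAM134C and GALR2 the most read. TAX1BP3 and EMC6 (chr17:3668812-3669668, plus strand) are neighbours 0.133 kb apart, with 356 and 385 reads. Chromosome 1 held 6 targets (4.84%, interval 1.80% to 10.2%) against 10.3% of guide rows.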

How the data were processed

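Guide cassettes in genomic DNA were sequenced from 1 library per condition. Raw counts of reads for each guide were deposited by the authors, together with a normalized signal, which is the raw count multiplied by 0.982 (unsorted) or 1.02 (TRT-negative). The submitters' processing notes name MAGeCK and hg38; the rule for assigning reads is not given in the sources used here. Deposited tables of the authors' own comparisons (log ratios, scores, p-values, ranks) were not used. Guide sequences were not used here.

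Raw counts chose the guides, with 0 unsorted and at least 300 TRT-negative reads, and normalized counts with a pseudocount of 1 gave ratios. The guides, gene lists and roles were chosen with earlier results of these data known. Genes were named by a rule: the 20 highest guides, listed genes, genes with another guide past the threshold, up to 10 with the best-read other guides, and values at the limits, with examples from each role. Rows next to a row with identical nonzero counts were taken as possibly of the same sequence; none of the 127 lay so. Of the 127 symbols 126 matched RefSeq, 12 through older names. Counting was tested on simulated data. Python 3.11.15, numpy 2.4.6, pandas 2.3.3 and scipy 1.17.1 were used.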

Additional observations from a re-analysis of the deposited data

How the results depend on the processing

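Of 33 alternative values 25 stayed within 1.5 times the count or within the interval of the share, and 8 did not. The number of guides was 297 with a minimum of 200 raw reads, 46 with 500, 54 in sublibrary A and 73 in sublibrary B. Within sublibrary A alone, 25.9% of 108 other guides were read after sorting, against 22.8% of all others there, and 0% were past the threshold, against 2.81%. No interval was calculated for these 108 guides, so the values show no difference from the others of the sublibrary, and no cause was tested. With the 99th percentile of non-targeting guides 0.473% of other guides were past the threshold, against 0.389% of all others, and with at least 30 unsorted reads 0% of 53, against 0% of all such guides. A limit of 300 normalized counts gave 132 guides, and up to 3 unsorted reads 135.

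The depth, 1 library per condition and the sampling of cells limit every value: a guide at 0 was not detected at this depth, and whether its cells were absent before sorting was not tested.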

Other observations

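These limits were chosen after seeing the data. With a lower limit of 200 TRT-negative reads from 0 unsorted reads, 297 guides fell in 292 genes, and 5 genes held a pair. KAT5 had 250 and 312 reads. WASL, which drives actin branching, had 202 and 226. The other 3 were RBMY1A1, RBMY1F and RBMY1J, near-identical copies whose rows lay beside rows with identical counts. With 150 reads 552 guides passed, and 9 of 543 genes held at least 2 of them. With 100 reads 1260 of the 114123 protein-coding guides passed, and 32 of 1228 genes held at least 2. The number of such genes to be found at these overall shares was not calculated, so the pairs are a description and no evidence that guides agree.

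The reverse pattern was rarer as a count over all rows. Guides with at least 300 unsorted reads and none after sorting numbered 5 of 114123 protein-coding rows. With 0 unsorted and at least 300 TRT-negative reads there were 127. The reverse pattern was found for 0 of 7288 microRNA and 1000 non-targeting guides. Of the 113996 protein-coding guides other than the 127, more were read in the TRT-negative library (25661) than in the unsorted library (11943). Guides read only in the unsorted library were not counted, so whether abundant guides were rarer among them was not tested. RSBN1L had 755 unsorted reads, AP4M1 464 and RMND5A 408, and a row of CHMP3 and 1 of RNF103-CHMP3, which overlap, had the same 391.

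The 9 microRNA guides that met the rule had 304 to 1105 TRT-negative reads. A pair of them, against hsa-mir-374b and hsa-mir-374c, had the same 1105 reads in adjacent rows.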
